A study of Danio rerio with 9 samples.

Results

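The genes described here code for isozymes of 4 steps of glycolysis: the lactate dehydrogenase genes ldhbb, ldha and ldhba, the enolase gene eno1b, the phosphofructokinase gene pfklb and the phosphoglycerate kinase gene pgk1. All probe sets that the platform annotation gives to one of these symbols were taken, which made 9 probe sets of 6 genes, out of 15502 tested probe sets and 8793 genes with a symbol. ldhbb, ldha, ldhba and eno1b have 1 probe set each, pgk1 has 2 and pfklb has 3. No filter on low values was applied, so all 9 were measured and tested. The genes were chosen by their measured differences between regenerated neurons and both other groups on these arrays, so those differences are given as a description, with no test.

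Neurons were sorted from the dissociated brain of adult zebrafish, and each of 9 samples was hybridised to 1 Affymetrix array. The regenerated group (3 arrays) holds neurons of fish whose cord was fully cut at vertebra 8 and whose axon took up a green tracer, Fluoroemerald, placed 4 mm beyond the cut 3 weeks later. The nonregenerated group (3 arrays) holds neurons of lesioned fish that carried the red tracer Fluororuby from the cut and had not regrown an axon. The unlesioned group (3 arrays) holds neurons of uncut fish traced with Fluororuby at the same vertebra. All were collected 1 week after the last tracer, so the time since the first tracer is longer in both lesioned groups. The strain, the age in months and the number of fish per sample are not given in the sources used here, and p-values measure the spread between these samples only.

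Glycolysis splits glucose into pyruvate, and most of its steps can be run by several isozymes from separate genes. Phosphofructokinase makes the committed step near the top, phosphoglycerate kinase makes the first ATP in the lower part, and enolase makes phosphoenolpyruvate, from which pyruvate is formed. Lactate dehydrogenase then turns pyruvate into lactate or lactate into pyruvate. It is a tetramer of A and B subunits, and in mammals the A form prevails in skeletal muscle and the B form in heart. In mammalian brain, alpha enolase (ENO1) is known as the form of glia and other non-neuronal cells, beside a neuron-specific enolase (ENO2). The gene eno2 was listed but was not among the genes measured here.

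Every value is a log2 value relative to the median of its own probe set over the 9 arrays, so arrays can be compared within a probe set, but no absolute level is known. Whether the neuronal label holds can therefore be read only as differences: the mean of 10 measured of 18 listed neuron markers ran from 0.09 to 0.42 over the regenerated arrays, from -0.95 to -0.37 over the nonregenerated arrays and from 0.12 to 0.22 over the unlesioned arrays. One of the 10, atp1a3b, read 1.87, 2.31 and 2.64 in the regenerated arrays and so raised their mean. Of the 10, 4 were called higher against nonregenerated and 2 against unlesioned neurons (1.25% and 0.91% of all genes). The median change of the 10 was 0.73 and 0.06, with 2 and 3 of them below 0. The regenerated arrays varied more over all probe sets (SD 0.594 to 0.650 per array) than the nonregenerated (0.394 to 0.427) and unlesioned arrays (0.349 to 0.430). The median of 22 negative control probe sets lay at 0.04 to 0.48 in the regenerated arrays, with -0.16 to -0.00 in the nonregenerated and -0.13 to 0.08 in the unlesioned arrays. Since the sorted cells were profiled in bulk, fewer cells of a type and less RNA of a gene per cell cannot be told apart.

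Of the 3 lactate dehydrogenase genes described here, ldhbb, which codes for a B subunit, differed most between regenerated neurons and both other groups. Its probe set read 2.13, 3.21 and 2.38 in the regenerated arrays, -0.24, 0.00 and -0.27 in the nonregenerated arrays and -0.06, 0.90 and -0.09 in the unlesioned arrays. The lowest regenerated array thus lay above the highest of the other 6, which was unlesioned array 2. Regenerated neurons exceeded nonregenerated neurons by 2.74 ± 0.34 on the log2 scale (6.70-fold, standard error of the model) and unlesioned neurons by 2.32 ± 0.34 (5.00-fold).

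The A subunit gene ldha overlapped between all 3 groups. Its probe set read 0.02, 0.38 and -0.44 in the regenerated, 0.53, 0.32 and -0.66 in the nonregenerated and -1.11, -0.20 and 0.00 in the unlesioned arrays. Regenerated minus nonregenerated was -0.08 ± 0.39 and regenerated minus unlesioned was 0.42 ± 0.39. The first of these took the opposite sign in 5 of 18 alternative settings, and was 0.61 once the fit held the median of the negative controls as a term.

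The other B subunit gene, ldhba, differed little between the groups but was tightly measured. It read 0.21, 0.11 and 0.28 in the regenerated, -0.12, -0.09 and 0.00 in the nonregenerated and -0.03, 0.06 and -0.15 in the unlesioned arrays. Regenerated arrays lay above both other groups without overlap, by 0.27 ± 0.16 over nonregenerated and 0.24 ± 0.16 over unlesioned neurons. Centring each array on its 75th percentile shifts all probe sets by -0.12 and -0.11 in these comparisons, and ldhba then stood at 0.15 and 0.12. The median of the negative controls also ran higher in the regenerated arrays (0.04 to 0.48). It was -0.16 to -0.00 in the nonregenerated and -0.13 to 0.08 in the unlesioned arrays. Whether ldhba differs beyond such a shift was not tested. ldhd, also listed under lactate dehydrogenase but outside the genes described here, was at 0.14 ± 0.27 and 0.42 ± 0.27 (limma adjusted p = 0.820 and 0.498).

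The balance of the lactate dehydrogenase genes can be followed within each array as the ldhbb value minus the ldha value. This difference was 2.11, 2.83 and 2.82 in the regenerated arrays, -0.78, -0.32 and 0.39 in the nonregenerated arrays and 1.05, 1.103 and -0.09 in the unlesioned arrays. The 3 regenerated arrays were the highest on this measure. Against ldhba, the ldhbb value stood at 2.37 ± 0.64 in regenerated, -0.10 ± 0.18 in nonregenerated and 0.29 ± 0.48 in unlesioned neurons (mean ± SD, n = 3 each). The ratios are relative to each probe set's median and say nothing of which subunit is the more abundant.

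**Figure D1:**
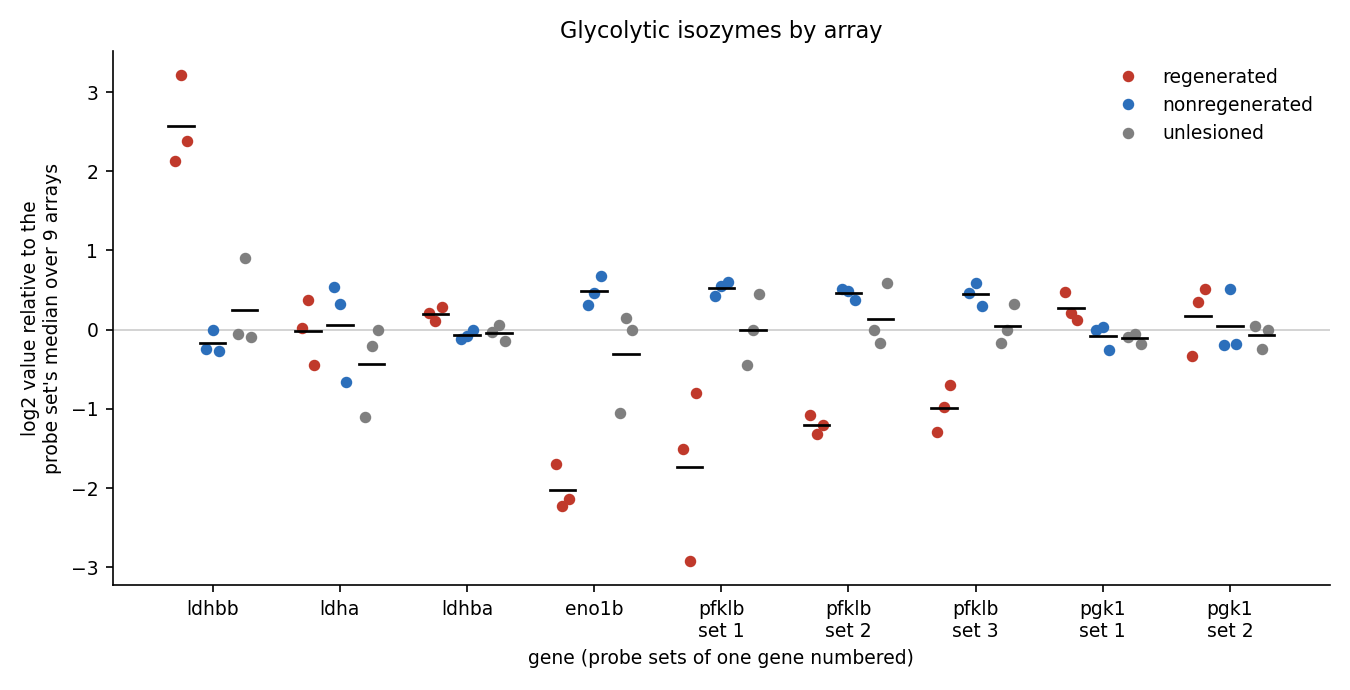
Values of the 9 probe sets by array (y axis, log2 value relative to the probe set's median over the 9 arrays), with a point per array and a black bar at the mean of each group of 3. The regenerated arrays lie above all others for ldhbb (2.13 to 3.21) and below all others for eno1b (-2.23 to -1.70) and each pfklb probe set, while ldha overlaps in all groups.

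The enolase gene eno1b ran the other way. It read -1.70, -2.23 and -2.14 in the regenerated arrays, 0.31, 0.46 and 0.68 in the nonregenerated arrays and -1.06, 0.15 and 0.00 in the unlesioned arrays. All 3 regenerated arrays lay below the other 6, and unlesioned array 1 was the lowest of those 6. Regenerated minus nonregenerated was -2.51 ± 0.32, a level 5.69-fold lower, and regenerated minus unlesioned was -1.72 ± 0.32, or 3.30-fold lower.

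Its paralogues did not follow it. eno1a, the other alpha enolase gene, was at 0.33 ± 0.25 against nonregenerated and 0.18 ± 0.25 against unlesioned neurons (limma adjusted p = 0.546 and 0.784). eno3, known in mammals as the muscle enolase, was at -0.00 ± 0.29 and 0.59 ± 0.29 (adjusted p = 0.999 and 0.362), and eno4 at 0.02 ± 0.21 and -0.01 ± 0.21 (adjusted p = 0.972 and 0.988). Within an array, the eno1a value minus the eno1b value was 1.35, 2.60 and 2.55 in the regenerated, -0.31, -0.79 and -0.90 in the nonregenerated and 0.69, -0.06 and 0.18 in the unlesioned arrays. Regenerated neurons therefore had the highest eno1a to eno1b ratio on each of their 3 arrays.

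The liver-type phosphofructokinase gene pfklb was lower in regenerated neurons on all of its 3 probe sets, numbered here in the order of their identifiers. Its first probe set read -1.50, -2.92 and -0.80 in the regenerated, 0.43, 0.55 and 0.60 in the nonregenerated and -0.45, 0.00 and 0.45 in the unlesioned arrays. The second read -1.08, -1.32 and -1.21 in the regenerated, 0.51, 0.49 and 0.37 in the nonregenerated and 0.00, -0.17 and 0.58 in the unlesioned arrays. The third read -1.29, -0.97 and -0.70 in the regenerated, 0.47, 0.59 and 0.30 in the nonregenerated and -0.17, 0.00 and 0.32 in the unlesioned arrays. On each of the 3 the regenerated arrays lay below all others, and the first had the widest spread among them (SD 1.08, against 0.12 and 0.30 for the others).

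Regenerated minus nonregenerated was -2.27 ± 0.47, -1.66 ± 0.22 and -1.44 ± 0.21 for the 3 pfklb probe sets, and regenerated minus unlesioned was -1.74 ± 0.47, -1.34 ± 0.22 and -1.04 ± 0.21. Across the 9 arrays the probe sets correlated with each other at r of 0.887 to 0.947, a description over arrays that share the same split of groups. The first probe set rests most on 1 array: without regenerated array 2 its change against nonregenerated neurons was -1.68. As a mean of its probe sets, pfklb changed by -1.79 ± 0.25 and -1.37 ± 0.25, or 3.45-fold and 2.59-fold lower.

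The other phosphofructokinase genes on the array lay above 0 instead. pfkma, of the muscle type, was at 0.45 ± 0.18 against nonregenerated and 0.34 ± 0.18 against unlesioned neurons, and pfkpa, of the platelet type, at 0.70 ± 0.31 and 0.32 ± 0.31. None of these passed over all genes (limma adjusted p = 0.254, 0.421, 0.301 and 0.673). The pfkma value minus the pfklb value was 1.63 ± 0.52 in regenerated, -0.61 ± 0.10 in nonregenerated and -0.08 ± 0.55 in unlesioned neurons (mean ± SD, n = 3 each).

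pgk1, the phosphoglycerate kinase gene, changed by under 0.5 on the log2 scale on both of its probe sets. Its first probe set read 0.48, 0.21 and 0.13 in the regenerated, 0.00, 0.03 and -0.26 in the nonregenerated and -0.10, -0.06 and -0.18 in the unlesioned arrays. Its other probe set read -0.34, 0.35 and 0.51 in the regenerated, -0.20, 0.51 and -0.18 in the nonregenerated and 0.04, -0.24 and 0.00 in the unlesioned arrays. The first showed regenerated arrays above both other groups, and the second overlapped with both. The mean of both was higher by 0.24 ± 0.19 than in nonregenerated and 0.31 ± 0.19 than in unlesioned neurons. The median of the negative controls was higher too, at 0.04 to 0.48 in the regenerated arrays. It was -0.16 to -0.00 in the nonregenerated and -0.13 to 0.08 in the unlesioned arrays. Whether pgk1 differs beyond such a shift was not tested.

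**Figure D2:**
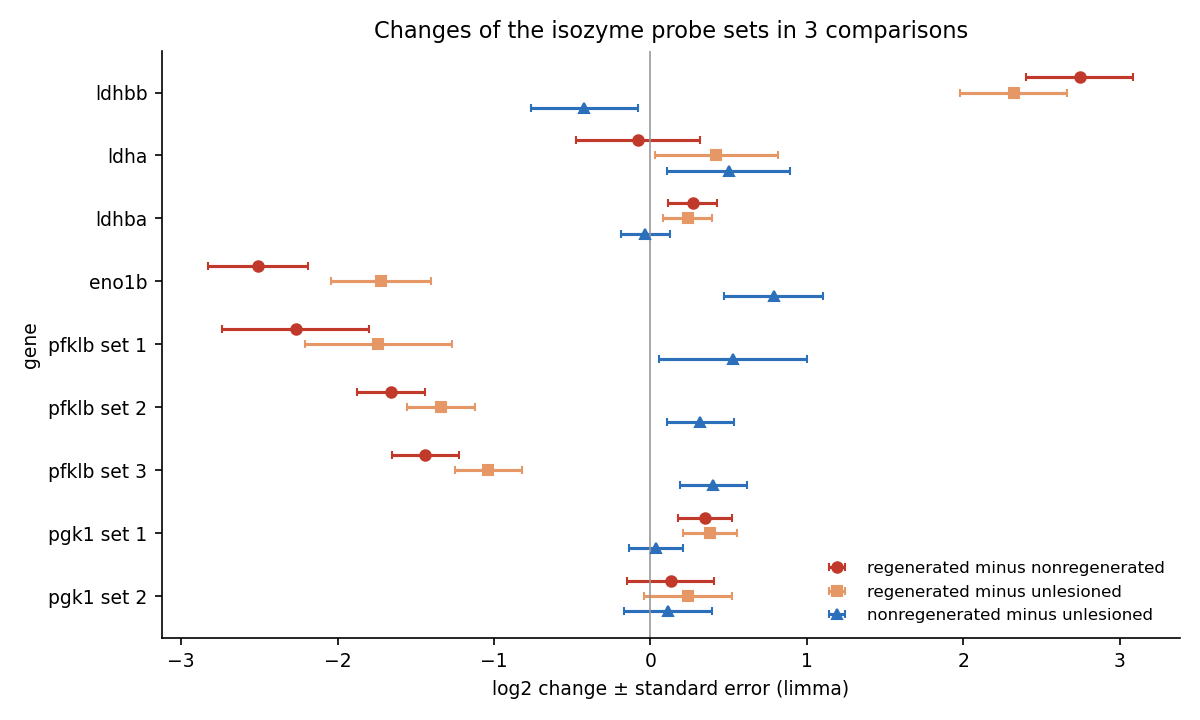
Log2 change (x axis, with standard error) of each of the 9 probe sets in the 3 comparisons. Both comparisons of regenerated neurons place ldhbb at 2.74 and 2.32 and eno1b at -2.51 and -1.72, with the 3 pfklb probe sets between -2.27 and -1.04, and the comparison of nonregenerated with unlesioned neurons lies between -0.42 and 0.79 for all 9.

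Counted by the model's threshold (adjusted p under 0.05 over all probe sets), regenerated against nonregenerated neurons gave 5 of the 9 probe sets, ldhbb higher and eno1b and the 3 of pfklb lower, where the whole array gave 2.45% called probe sets (1.05% higher, 1.41% lower). Regenerated against unlesioned neurons gave 4 of 9, without the first pfklb probe set, where 2.22% of all were called, 0.871% higher and 1.35% lower. Groups failed to overlap in 7 of the 9 in each of these comparisons, against 21.8% and 19.6% of all probe sets. The choice of genes used these 2 comparisons, so nothing is read from these counts, and both comparisons share the regenerated arrays.

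Nonregenerated neurons had been through the lesion without regrowing an axon. Against unlesioned neurons, none of the 9 probe sets was called. limma called 0% of all probe sets here, and 790 of 15502 had an unadjusted p under 0.05. Adjusted p-values of the 9 ran from 0.959 to 0.999. eno1b had the greatest change, 0.79 ± 0.32, with nonregenerated arrays at 0.31 to 0.68 above unlesioned arrays at -1.06 to 0.15, and it was the one probe set of the 9 without overlap, where 11.1% of all probe sets had none. Without unlesioned array 1 the eno1b change was 0.41. ldhbb was at -0.42 ± 0.34 and the 3 pfklb probe sets at 0.53 ± 0.47, 0.32 ± 0.22 and 0.40 ± 0.21. These point estimates have the sign opposite to the change in regenerated neurons for ldhbb, eno1b and pfklb, but they share the nonregenerated and unlesioned arrays with those changes and were not called.

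The rest of the pathway was read from a list of 37 glycolysis genes, of which 29 were measured, each by the mean of its probe sets. Beside the 6 genes above, 23 were measured, and regenerated neurons differed from nonregenerated and from unlesioned neurons in 1 of them, where 2.96% of all genes were called against nonregenerated neurons (1.25% higher, 1.71% lower) and 2.26% against unlesioned neurons (0.91% higher, 1.35% lower). This was aldoca, an aldolase C gene, whose product is the zebrin II antigen of Purkinje cells. It read 5.93, 5.58 and 5.19 in the regenerated, -0.12, -0.60 and -1.58 in the nonregenerated and 0.00, 3.46 and -0.33 in the unlesioned arrays. It rose by 6.33 ± 0.86 against nonregenerated neurons (limma adjusted p = 0.00555) and by 4.52 ± 0.86 against unlesioned neurons (adjusted p = 0.0303). The first call was lost in 2 of 19 alternatives and the second in 11, among them leaving out any regenerated array, nonregenerated array 2, or unlesioned array 1 or 3. Against unlesioned neurons the change was 5.73 without unlesioned array 2, the high one, 4.00 without array 1 and 3.84 without array 3 (limma adjusted p = 0.00107, 0.0967 and 0.0973).

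The other 22 glycolysis genes stayed within 1 on the log2 scale of both other groups. They ran from -0.23 to 0.70 against nonregenerated neurons, with 18 of 22 above 0 and a smallest limma adjusted p of 0.222, and from -0.10 to 0.59 against unlesioned neurons, with 19 of 22 above 0 and a smallest adjusted p of 0.344. The median of the 23 genes outside the 6 was 0.20 and 0.26, beside 0.06 for all genes in both comparisons. Nonregenerated against unlesioned neurons gave a median of -0.03 and no call. The 12 measured skeletal muscle markers had medians of similar size, 0.24 and 0.23 against nonregenerated and unlesioned neurons. Centring each array on its 75th percentile shifts all genes by -0.12 and -0.11. A rise of the pathway as a whole was not tested. The hexokinase genes hk1 and hk2, at the entry of the pathway, were at 0.15 ± 0.21 and 0.04 ± 0.45 against nonregenerated neurons. At its end, the pyruvate kinase genes pkma and pklr were at 0.20 ± 0.22 and 0.51 ± 0.21 (limma adjusted p = 0.685 and 0.257). gapdh and gapdhs, of the step before phosphoglycerate kinase, were at 0.63 ± 0.33 and 0.14 ± 0.22 (adjusted p = 0.374 and 0.792). Against unlesioned neurons hk1 and hk2 were at -0.06 ± 0.21 and 0.46 ± 0.45. There pkma and pklr were at 0.23 ± 0.22 and 0.26 ± 0.21, and gapdh and gapdhs at 0.15 ± 0.33 and 0.11 ± 0.22.

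**Figure D3:**
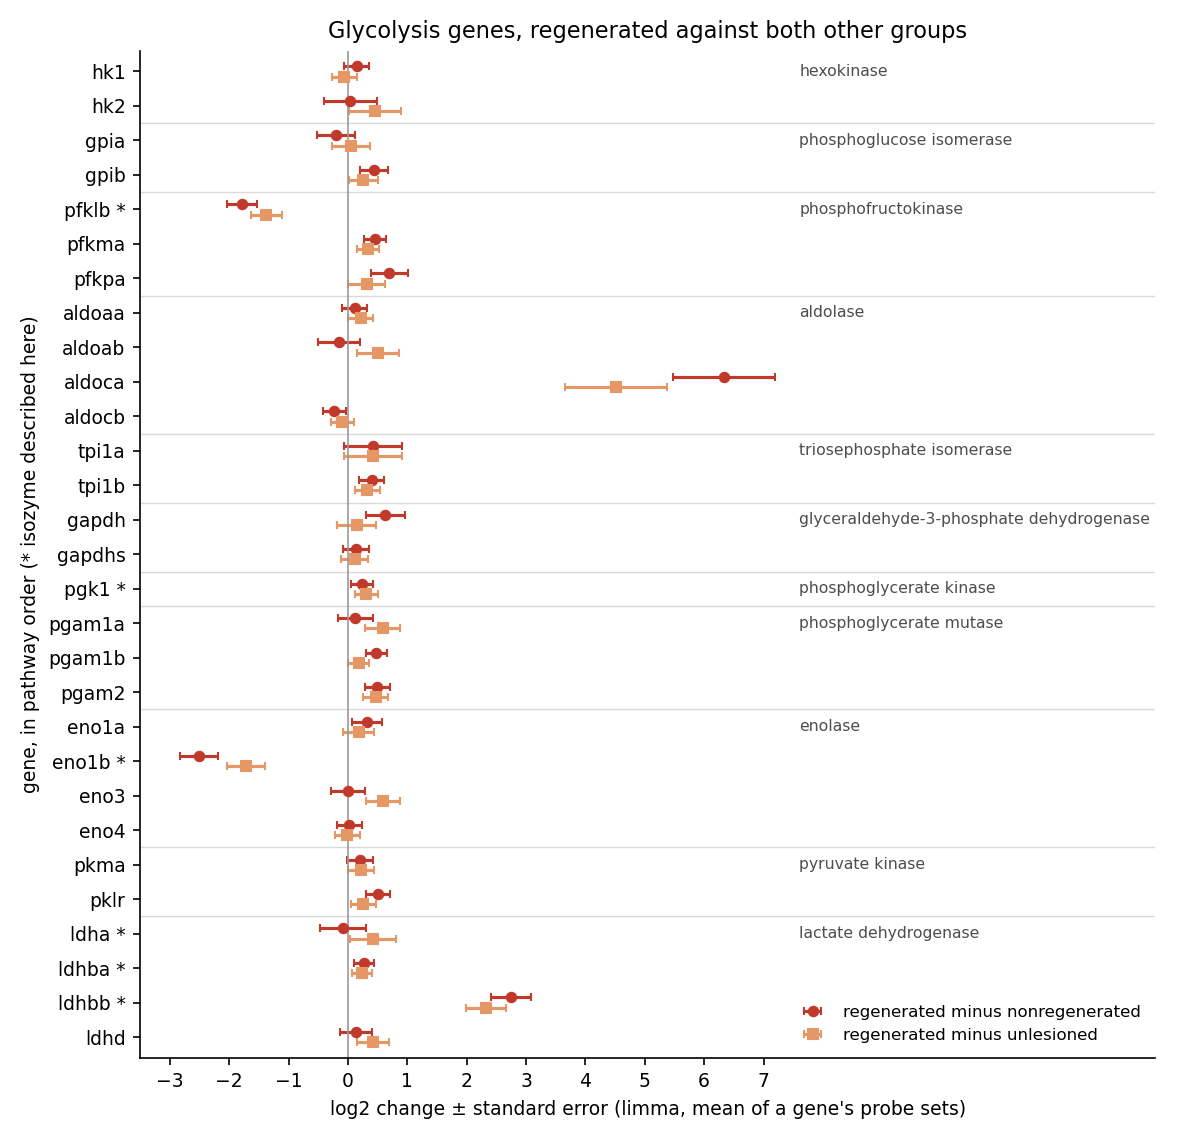
Log2 change with standard error of the 29 measured glycolysis genes in pathway order from top to bottom, for regenerated minus nonregenerated (circles) and regenerated minus unlesioned neurons (squares). The large changes are in single isozymes, pfklb (-1.79 and -1.37) and eno1b (-2.51 and -1.72) on the left and ldhbb (2.74 and 2.32) and aldoca (6.33 and 4.52) on the right, while the other 22 genes outside the described 6 lie between -0.23 and 0.70.

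Genes that supply or steer glycolysis were read from a second list, of which 9 of 18 were measured. Here pfkfb3, 1 of the 9, rose against unlesioned neurons, where 0.91% of all genes rose. It codes for an enzyme that makes fructose 2,6-bisphosphate, the activator of phosphofructokinase. Its first probe set read 1.55, 1.42 and 0.79 in the regenerated, 0.39, 0.00 and -0.22 in the nonregenerated and -0.19, -0.16 and -0.85 in the unlesioned arrays. Its second read 0.00, 0.86 and 0.68 in the regenerated, 0.04, 0.19 and -0.58 in the nonregenerated and -0.62, -0.89 and -1.36 in the unlesioned arrays. On both, the regenerated arrays lay above every unlesioned array, while on the second they overlapped with the nonregenerated arrays. In the mean of both, nonregenerated neurons also lay above unlesioned neurons, by 0.65 ± 0.25 without overlap, which was not called (limma adjusted p = 0.884). The gene was 1.56 ± 0.25 above unlesioned neurons (limma adjusted p = 0.0160), and 0.92 ± 0.25 above nonregenerated neurons, which did not pass (adjusted p = 0.0982). The call was lost in 4 of 19 alternatives, 2 of which left out regenerated array 2 or unlesioned array 3, at 1.43 and 1.35.

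Other members of that list were not called. pfkfb4b, of the same enzyme family, was at -0.75 ± 0.25 against nonregenerated and 0.36 ± 0.25 against unlesioned neurons. Its change in nonregenerated against unlesioned neurons, 1.11 ± 0.25, had a limma adjusted p of 0.582. The lactate carrier genes slc16a3b and slc16a1b were at -1.54 ± 0.49 and -0.71 ± 0.28 against nonregenerated neurons (adjusted p = 0.147 and 0.239) and at -1.04 ± 0.49 and -0.79 ± 0.28 against unlesioned neurons (adjusted p = 0.348 and 0.206).

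Pathways that meet glycolysis held no called gene in the comparisons of regenerated neurons. Of all genes, 2.96% were called against nonregenerated and 2.26% against unlesioned neurons, so a lack of calls among so few genes says little. Of genes that bring pyruvate into the mitochondrion, 10 of 19 were measured, with a median of 0.45 against nonregenerated neurons (range -1.57 to 0.76) and 0.34 against unlesioned neurons (range -0.38 to 1.18). pdk4, a kinase that restrains pyruvate dehydrogenase, was at -1.57 ± 0.40 against nonregenerated and -0.23 ± 0.40 against unlesioned neurons (limma adjusted p = 0.0696 and 0.833). Shuttles that return NADH electrons to mitochondria, an alternative to lactate dehydrogenase for remaking NAD+, had 11 of 13 genes measured and medians of 0.50 and 0.51, with got1, a transaminase of the malate-aspartate shuttle, at 1.31 ± 0.32 and 1.25 ± 0.32 (adjusted p = 0.0619 and 0.0895). In the same list gpd1b, a glycerol phosphate dehydrogenase gene of the other shuttle, lay the opposite way, at -1.65 ± 0.44 and -1.08 ± 0.44 (limma adjusted p = 0.0855 and 0.281). Gluconeogenesis had medians of -0.02 and 0.18 over 5 genes, the pentose phosphate pathway -0.28 and -0.01 over 5, and glycogen metabolism 0.41 and 0.64 over 5.

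Several glycolysis genes are known targets of hypoxia-inducible factors, so other genes of that response were read too. Of 27 listed, 15 were measured, with medians of -0.52 against nonregenerated neurons (range -1.64 to 1.14) and 0.06 against unlesioned neurons (range -1.44 to 0.91). vegfaa, the vascular growth factor, fell by 1.51 ± 0.33 against nonregenerated neurons (limma adjusted p = 0.0456), a call lost in 14 of 19 alternatives at changes of -1.22 to -1.73. Of the 15, vegfaa alone was called, where 1.71% of all genes fell against nonregenerated neurons. Against unlesioned neurons it was at -1.35 ± 0.33 (adjusted p = 0.0798).

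Markers of other brain cells differed between the same arrays. The marker lists here and below were chosen with earlier results of these data known, so their counts are a description and no support. Of the Purkinje list, which includes aldoca, 7 of 10 genes were measured, and 4 rose while none fell by the test against either other group (1.25% of all genes rose against nonregenerated and 0.91% against unlesioned neurons). Its mean ran from 2.26 to 2.64 in the regenerated, from -0.95 to -0.28 in the nonregenerated and from -0.24 to 1.28 in the unlesioned arrays. Unlesioned array 2 was the highest of the unlesioned arrays on this list and for ldhbb, but also for eno1b (0.15). Among the nonregenerated arrays ldhbb was highest in array 2 (0.00) and the list in array 1 (-0.28). A link between the list and the isozymes was not tested. Beside aldoca, the genes that rose were pvalb7, a calcium buffer, by 5.96 ± 0.53 and 4.01 ± 0.53 against nonregenerated and unlesioned neurons, pcp4l1 by 5.21 ± 0.52 and 4.24 ± 0.52, and ca8 by 3.90 ± 0.41 and 4.16 ± 0.41 (limma adjusted p = 0.000622 to 0.00680). The other 3 measured genes did not share this. rorab, a nuclear receptor of Purkinje cells, was at -0.71 ± 0.19 and -0.82 ± 0.19 (adjusted p = 0.0790 and 0.0561), pcp4a at -0.00 ± 0.40 and -1.01 ± 0.40, and calb2a at 0.74 ± 0.55 and -0.26 ± 0.55, so that 2 of 7 lay below 0 against nonregenerated and 3 of 7 against unlesioned neurons.

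Of radial glia and astroglia markers, 17 of 23 were measured, of which 6 fell against nonregenerated and 7 against unlesioned neurons (1.71% and 1.35% of all genes), and none rose. Their mean ran from -1.68 to -0.73 in the regenerated, 0.06 to 0.44 in the nonregenerated and -0.12 to 0.29 in the unlesioned arrays. The transcription factor genes sox9b and sox9a were at -2.88 ± 0.20 and -2.44 ± 0.24 against nonregenerated neurons and at -3.20 ± 0.20 and -2.40 ± 0.24 against unlesioned neurons (limma adjusted p = 0.000273 to 0.00178). her6, a hairy-related repressor gene, was at -1.92 ± 0.27 and -1.06 ± 0.27 (adjusted p = 0.00695 and 0.0939), and atp1a1b, a sodium pump gene, at -2.43 ± 0.35 and -1.98 ± 0.35 (adjusted p = 0.00695 and 0.0235). cyp19a1b and vim were called only against unlesioned neurons, at -2.14 ± 0.34 and -1.93 ± 0.41 (adjusted p = 0.0147 and 0.0457). Nonregenerated minus unlesioned was -1.87 ± 0.34 and -1.19 ± 0.41 for these genes (adjusted p = 0.466 and 0.802), where 14 of the 17 markers lay above 0. Regenerated neurons had all 17 below 0 against nonregenerated and 16 against unlesioned neurons. gfap was not called, at -1.16 ± 0.28 and -0.36 ± 0.28 (limma adjusted p = 0.0604 and 0.579). Neither were s100b, at -0.71 ± 0.53 and -0.45 ± 0.53, and glula, at -0.44 ± 0.41 and -0.13 ± 0.41. slc1a3a was at -0.69 ± 0.32 and 0.52 ± 0.32.

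Of 13 oligodendrocyte markers 7 were measured, of which 4 fell and none rose in each of the comparisons of regenerated neurons (1.71% of all genes fell against nonregenerated and 1.35% against unlesioned neurons). Their mean ran from -2.23 to -1.30 in the regenerated, 0.10 to 0.29 in the nonregenerated and 0.17 to 0.62 in the unlesioned arrays. The 4 were the lineage transcription factor genes olig2, at -3.35 ± 0.46 and -3.27 ± 0.46, sox10, at -3.15 ± 0.39 and -2.97 ± 0.39, and nkx2.2a, at -1.85 ± 0.29 and -1.61 ± 0.29, and the membrane glycoprotein gene gpm6bb, at -3.17 ± 0.43 and -2.75 ± 0.43 (limma adjusted p = 0.00394 to 0.0246). The myelin basic protein genes were not called: mbpa was at 0.28 ± 0.48 and -0.51 ± 0.48 (adjusted p = 0.802 and 0.658), and mbpb at -0.26 ± 0.32 and -0.62 ± 0.32 (adjusted p = 0.725 and 0.403). cldnk was at -1.34 ± 0.47 and -2.02 ± 0.47 (adjusted p = 0.194 and 0.0654). Among the neuron markers, atp1a3b, the neuronal sodium pump gene, and gng3, a G protein subunit gene, rose against both groups, by 3.48 ± 0.44 and 2.61 ± 0.44 and by 1.36 ± 0.16 and 0.76 ± 0.16 (adjusted p = 0.00351 to 0.0470). snap25b and stmn2a, of the synapse and of growing axons, rose against nonregenerated neurons, by 2.06 ± 0.41 and 0.95 ± 0.21 (adjusted p = 0.0309 and 0.0462), and were at 0.60 ± 0.41 and 0.01 ± 0.21 against unlesioned neurons. Other neuron markers were not called. snap25a was at 0.96 ± 0.28 and 0.11 ± 0.28, atp1a3a at 0.51 ± 0.25 and 0.10 ± 0.25, and syt1a at 0.50 ± 0.34 and 0.02 ± 0.34. All 10 lay lower in nonregenerated than in unlesioned neurons (median -0.79), with none called. Against nonregenerated neurons 8 of 10 regenerated changes lay above 0 and 2 below, and against unlesioned neurons 7 above and 3 below. tubb5 was at -0.88 ± 0.38 and -1.67 ± 0.38 (limma adjusted p = 0.284 and 0.0555), and elavl3 at -0.03 ± 0.23 and -0.81 ± 0.23 (adjusted p = 0.970 and 0.124). elavl4 was at 0.15 ± 0.28 and -0.44 ± 0.28.

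The mean of 11 measured leukocyte markers ran from 0.07 to 0.11 in the regenerated, -0.03 to 0.42 in the nonregenerated and -0.26 to 0.18 in the unlesioned arrays. One of them, the apolipoprotein gene apoeb, rose against unlesioned neurons by 0.95 ± 0.20 (limma adjusted p = 0.0405), where 0.91% of all genes rose. The lysozyme gene lyz read 4.27 and 3.74 in unlesioned arrays 1 and 3 and so raised the mean of both. It lay between -0.55 and 0.07 in the other 7 arrays. Against unlesioned neurons 8 of the 11 markers lay above 0 in regenerated and 9 in nonregenerated neurons. Regenerated minus nonregenerated lay above 0 in 6 of the 11 and below 0 in 5. Erythroid markers ran from -0.05 to 0.84 in the regenerated, -1.29 to -0.89 in the nonregenerated and 0.57 to 2.34 in the unlesioned arrays, with none called. Endothelial markers stood at 2.56 in regenerated array 1 but at 0.12 and 0.35 in regenerated arrays 2 and 3. They ran from -0.35 to -0.09 in the nonregenerated and -0.19 to 0.33 in the unlesioned arrays, with none called. Skeletal muscle markers, of a tissue rich in glycolytic enzymes, ran from 0.08 to 0.29 in the regenerated, -0.04 to 0.08 in the nonregenerated and -0.11 to 0.08 in the unlesioned arrays, with none of 12 called. The part of these cell types in the changes of ldhbb, eno1b and pfklb was not tested, and since values are centred it is not known which markers are near 0.

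**Figure D4:**
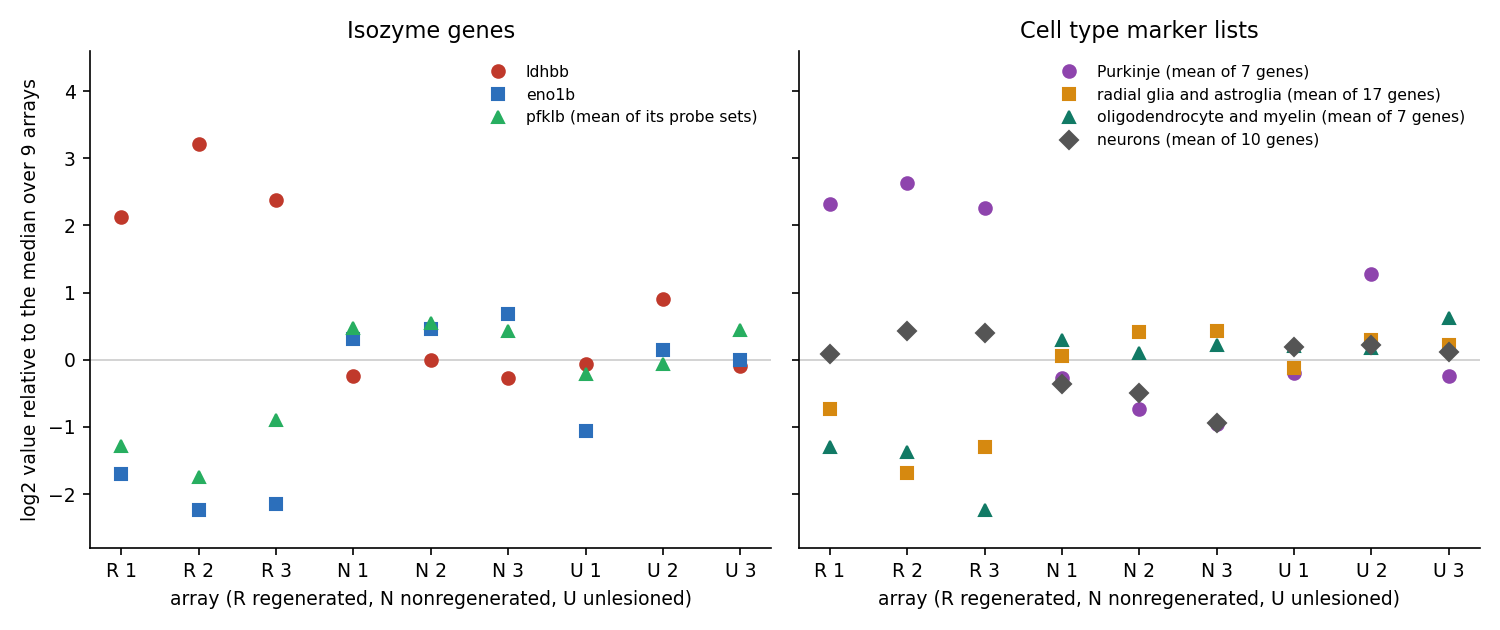
Left, values of ldhbb, eno1b and pfklb in each of the 9 arrays. Right, means of 4 marker lists in the same arrays (both y axes, log2 relative to the median over the 9 arrays). In the 3 regenerated arrays ldhbb and the Purkinje mean are high (2.26 to 2.64 for the list) and eno1b, pfklb and both glial means are low. Of the unlesioned arrays, array 2 is highest for ldhbb (0.90), eno1b (0.15) and the Purkinje mean (1.28), and a link was not tested.

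The probe sets most like the 3 strongly changed isozymes across the 9 arrays were sought among 10041 others with an informative symbol, by Pearson's r and as a description. Since the regenerated arrays stand apart for these isozymes, r is also given over the other 6 arrays. For ldhbb these were lrrfip1a (r = 0.983 over 9 arrays, 0.752 over 6), cox4i1l (0.976 and 0.734), ptpa (0.974 and 0.636) and arhgap21b (0.973 and 0.604). cox4i1l codes for a subunit of cytochrome c oxidase, the last complex of the respiratory chain.

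For eno1b the most alike were spred1 (0.980 and 0.929), ptgdsb.2 (0.975 and 0.929), lemd1 (0.973 and 0.854) and scamp2 (0.972 and 0.950). spred1 codes for an inhibitor of the Ras to MAP kinase pathway. For the mean of the pfklb probe sets they were ncalda (0.988 and 0.962), atp1a1b (0.967 and 0.862), acanb (0.965 and 0.705) and the apelin receptor gene aplnra (0.963 and 0.943). atp1a1b is one of the radial glia and astroglia markers given above.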

How the data were processed

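RNA was amplified before labelling, per the labels. The authors used RMA (named in the submitters' processing notes without a version), and the deposited log2 values are 1 per probe set and array. All 15617 probe sets had a median of 0 over the 9 arrays (tolerance 1e-04), and the step that centred them is not stated. The 115 control probe sets were left out. Genes were named from the platform annotation (1 symbol for 10795 probe sets, several for 135, none for 4572), updated through RefSeq (GRCz12tu, names only, 10711 found). None of the 9 isozyme probe sets has a suffix for cross-hybridisation.

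Group means were fitted to all 9 arrays with limma 3.58.1 (R 4.3.3), Benjamini-Hochberg over all probe sets or genes, threshold 0.05, two-sided, and tested on simulated data. The genes and lists were chosen with earlier results of these data known. Named are the isozymes, genes of the same reactions, called list genes (for each other list and the markers, at most 4, by smallest p), and 4 most alike probe sets for ldhbb, eno1b and pfklb; genes given beyond this rule, with their values, were picked after these were seen. Precision is limited by having 3 arrays per group. Figures used matplotlib 3.10.9.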

Additional observations from a re-analysis of the deposited data

How the results depend on the processing

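Of 18 alternatives for probe sets (19 for genes), ldhbb, eno1b and the 3 pfklb probe sets kept their direction in both comparisons of regenerated neurons in all 18. They were chosen for these differences, so the kept direction is a description and no support. In the 9 runs that left out 1 array, ldhbb passed the threshold in 9 against nonregenerated and 8 against unlesioned neurons. eno1b passed in 9 and 3 of these runs. The 3 pfklb probe sets passed in 2, 9 and 9 against nonregenerated and in 1, 7 and 1 against unlesioned neurons. The glycolysis genes past the threshold were aldoca and the isozymes ldhbb, eno1b and pfklb, and since the isozymes were chosen on these comparisons, the counts that include them are a description and no test. Against nonregenerated neurons (4) they were 1 with the negative control median as a term, which was ldhbb, and 4 without each array in turn. Against unlesioned neurons (also 4) they were 0 after a further quantile normalization, 1 with that term, 1 with only the 2 groups compared, 2 without regenerated arrays 1 and 3 together, and 0 to 4 on leaving out 1 array: 0 without unlesioned array 3, 1 when regenerated array 2 was dropped, and 2 when regenerated array 3 or unlesioned array 2 was. Probe sets called against nonregenerated neurons (380) were 176 after quantile normalization, 183 with the term, 224 with only the 2 groups, and 181 to 572 on leaving out 1 array, with 572 when regenerated array 1 was dropped, 181 without nonregenerated array 2 and 197 without nonregenerated array 3. Against unlesioned neurons (344) they were 96 after quantile normalization, 130 with the term, 158 with only the 2 groups, 193 with the replicate block, and 58 to 418 without 1 array, with 58 without unlesioned array 3, 107 without unlesioned array 2, 173 without unlesioned array 1, 137 and 218 without regenerated arrays 2 and 3, and 220 and 228 without nonregenerated arrays 2 and 3. Nonregenerated against unlesioned neurons gave 0 to 1 without 1 array, the 1 without unlesioned array 2, and 0 under the other alternatives. The cause of these moves was not tested. Calls split into 162 higher and 218 lower against nonregenerated neurons, but 128 and 342 with arrays centred on their 75th percentile and 110 and 73 with the term, and into 135 and 209 against unlesioned neurons, but 99 and 282 and 71 and 59. Samples share only a replicate number: same-numbered deviations from the group means correlated at -0.19 to 0.26, and not every sample correlated best with its own number. With the replicate block the glycolysis count was 4 against nonregenerated and 3 against unlesioned neurons. A filter on dim probe sets was not possible, because centred values hold no signal over background.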
